A study of Mus musculus and Rattus norvegicus with 14 samples.

Results

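Hearts from mice given LQ-40 were set directly against hearts from mice given SQ-3, gene by gene. The comparison took the 3 LQ-40 and the 3 SQ-3 libraries of the mouse expression table, 6 of the 14 samples in the series, and 13000 of the 54532 genes in the table reached 1 FPKM in 3 or more of 12 mouse libraries and were tested. The 12 are poly(A) RNA libraries of heart: LQ-40, SQ-3, Model and Sham, with 3 in each group, while the other samples are rat cells and were not used here. Both names are codes for compounds studied against myocardial fibrosis, and the series' design text speaks of structural similarity without giving either structure. The labels used here name the treatment and the tissue, and give neither dose, duration, procedure, strain, sex nor age, so it could not be checked that both compounds were given at matched doses and times. Whether each library stands for an animal of its own is not stated, so the p-values below measure only the spread between these samples.

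Fibrosis of the heart is the laying down of collagen-rich matrix by fibroblasts that have turned into myofibroblasts. Transforming growth factor beta (TGF-beta) signalling drives this change, integrins and matricellular proteins feed it, and stressed cardiomyocytes around the scar return to a fetal programme with more natriuretic peptide and less fatty acid oxidation. Interferon-stimulated genes are switched on through IRF and other transcription factors, which bind the interferon-stimulated response element in the promoters of many of them.

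No gene passed the test between LQ-40 and SQ-3 hearts. With limma on log2(scaled FPKM + 1) and Benjamini-Hochberg adjustment over 13000 genes, 0 genes (0%) had an adjusted p under 0.05, and the smallest adjusted p was 1.00. At an unadjusted p under 0.05 there were 394 genes (3.03%), of which 232 (1.78%) were higher and 162 (1.25%) were lower in LQ-40 hearts. limma-voom on the recovered reads called 0 genes as well, with 388 (2.98%) at an unadjusted p under 0.05. Set against Model hearts in the same fit, LQ-40 hearts had 24 genes called higher (0.185%) and 63 called lower (0.485%). SQ-3 hearts had 10 called higher (0.0769%) and 35 called lower (0.269%). Both of these comparisons use the same Model libraries, and only the direct test bears on whether the compounds differ.

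A test that calls nothing does not show that both compounds act alike, so the width of each interval matters. For 11805 genes (90.8%), the 95% interval of the LQ-40 minus SQ-3 difference lay inside a 2-fold change either way. With a pseudocount of 0.1 in place of 1, which compresses low genes less, this held for 10621 genes (81.7%). From the estimate to either limit, the interval measured 0.34 on the log2 scale at the median gene and 0.70 at the 90th percentile. The median difference over all genes was 0.00. A difference of at least 1 on the log2 scale was found for 86 genes (0.662%), 58 higher and 28 lower in LQ-40 hearts, and 24 of the 86 were pseudogenes. Among the genes described below, the chaperone gene Hspa5 had a narrow interval (-0.31 to 0.25) and the collagen gene Col1a1 a wide one (-0.86 to 1.65). Gene-by-gene library weights, a setting added later that rests the LQ-40 mean mostly on heart 2, called 313 genes higher (2.41%) and 174 lower (1.34%).

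**Figure D1:**
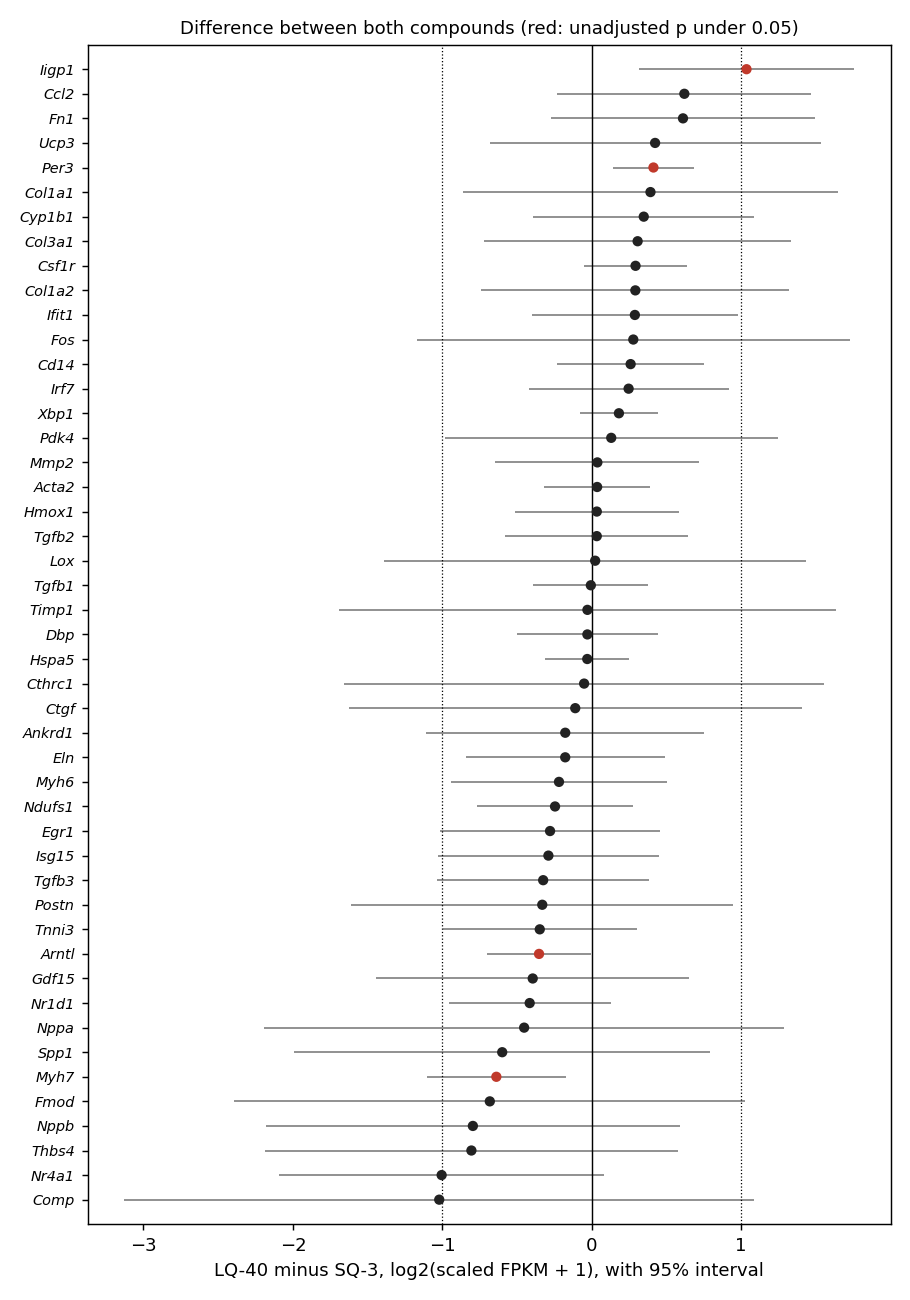
Difference LQ-40 minus SQ-3 on the log2(scaled FPKM + 1) scale (horizontal axis) for 47 genes of fibrosis, stress, metabolism, immunity and the clock (vertical axis). Points are estimates, bars are 95% intervals of the limma fit, dotted lines mark a 2-fold change and red points have an unadjusted p under 0.05. Hspa5 has an interval of -0.31 to 0.25 and Comp one of -3.13 to 1.09.

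The 6 libraries held 13085370 to 16698987 reads assigned to genes, recovered from the FPKM steps, and the cardiac genes Myh6, Tnni3, Tnnt2, Actc1, Myl2 and Ryr2 were abundant in every one, with Myh6 at 1205 to 2981 FPKM. The first principal component over the 12 libraries carried 53.4% of the variance, with Sham hearts at -52.5 to -43.7 and Model hearts at 26.3 to 36.2. LQ-40 hearts 1, 2 and 3 lay at -20.6, 16.0 and 34.3 on it, and SQ-3 hearts at 0.682, 17.7 and 0.231. On this component alone, LQ-40 heart 1 was thus the treated library nearest to Sham and LQ-40 heart 3 lay among the Model hearts. The SQ-3 hearts lay between LQ-40 hearts 1 and 3 on it. LQ-40 hearts 1 and 3 differed by 2-fold or more at 1274 genes (9.80%), while the 9 pairs of an LQ-40 with an SQ-3 heart differed so at 279 to 776. The other pairs within LQ-40 hearts differed so at 570 and 380 genes, and pairs within SQ-3 hearts at 265, 458 and 469. The median SD per gene was 0.20 in LQ-40, 0.16 in SQ-3, 0.12 in Model and 0.16 in Sham hearts on the log2 scale, and 60.9% of genes varied more among LQ-40 than among SQ-3 hearts. Leaving out LQ-40 heart 1 took the genes at an unadjusted p under 0.05 to 1510 (11.6%), 850 higher (6.54%) and 660 lower (5.08%) in LQ-40 hearts, still with 0 called. The mitochondrial share of reads was 21.2, 15.5 and 11.1% in LQ-40 hearts and 15.3, 15.6 and 20.1% in SQ-3 hearts, with means of 15.9 ± 5.05 and 17.0 ± 2.68% (SD, n = 3 each, two-sided exact permutation p = 0.9, where 0.1 is the smallest possible).

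**Figure D2:**
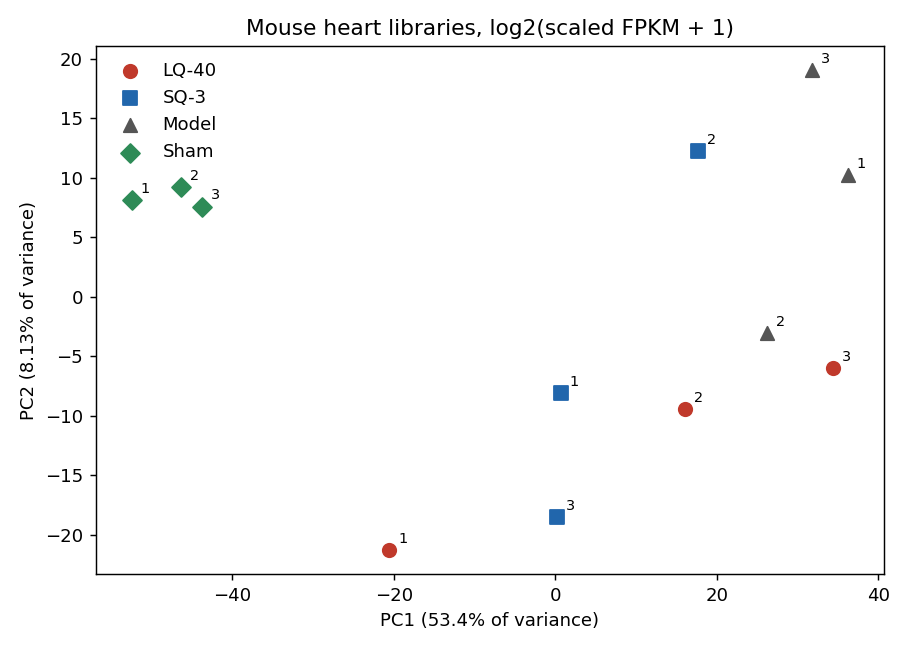
First and second principal components of log2(scaled FPKM + 1) for the 12 mouse heart libraries; each point is a library and its number is the replicate. LQ-40 hearts run from -20.6 to 34.3 on the first component, a wider range than the SQ-3 hearts, which run from 0.231 to 17.7.

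Matrix genes differed widely among the LQ-40 hearts. Values are given for replicates 1, 2 and 3 in that order from here on, in FPKM scaled between libraries. Col1a1, a chain of type I collagen, was at 184, 574 and 925 in LQ-40 hearts and at 416, 287 and 362 in SQ-3 hearts, against a mean of 877 ± 126 in Model and 79.3 ± 42.2 in Sham hearts (means ± SD, n = 3 each). LQ-40 heart 1 lay below every SQ-3 heart and hearts 2 and 3 above, so the groups overlapped. The difference was 0.39 on the log2 scale, with a 95% interval of -0.86 to 1.65. Col3a1, of type III collagen, followed the same order, at 327, 721 and 1419 in LQ-40 hearts, against 604, 563 and 519.9 in SQ-3 hearts. Fn1, fibronectin, was at 56.0, 157 and 232 in LQ-40 hearts, against 89.6, 79.3 and 80.2 in SQ-3 hearts, a difference of 0.61 (-0.28 to 1.497) that ran from 0.18 to 1.19 as single hearts were left out. Here again the highest and the lowest of the 6 values both came from LQ-40 hearts, and the SQ-3 hearts were close together. Comp, the matricellular cartilage oligomeric matrix protein, had the widest interval of the 47 genes plotted above, at 8.09, 146 and 203 in LQ-40 hearts, against 78.0, 267 and 107 in SQ-3 hearts, with a difference of -1.02 (-3.13 to 1.09). Without LQ-40 heart 1 this difference turned to 0.40.

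The 37 collagens and structural matrix genes had a median difference of -0.04, with 16 above and 21 below 0, where 50.7% of all genes were above 0. None of the 37 reached an unadjusted p under 0.05, yet 18 had an interval inside a 2-fold change, against 90.8% of all genes. Relative to the mean of the Model hearts, their mean level was -1.77, -0.41 and -0.08 in LQ-40 hearts and -0.87, -0.34 and -0.92 in SQ-3 hearts, on the log2 scale. LQ-40 heart 1 was lowest of the 6 and LQ-40 heart 3 was level with Model. Without LQ-40 heart 1 the median became 0.40, with 8 of 37 members at an unadjusted p under 0.05 and higher in LQ-40 hearts, where 6.54% of all genes were so, and without LQ-40 heart 3 it became -0.32. Set against Model, the median of this list was -0.70 for LQ-40 and -0.70 for SQ-3, with 0 members called for either compound. The 15 genes of activated fibroblasts tested gave a median of -0.10, and 5 intervals fell inside a 2-fold change. That median was 0.31 without LQ-40 heart 1, 0.18 without SQ-3 heart 2 and -0.59 without LQ-40 heart 3, so single hearts turned its sign. Their mean level relative to Model was -2.03, -0.39 and -0.03 in LQ-40 hearts, against -0.82, -0.10 and -0.83 in SQ-3 hearts. In such bulk tissue, fewer cells of a type and less RNA per cell cannot be told apart.

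Postn, periostin, a secreted marker of activated fibroblasts, was at 37.3, 147 and 273 in LQ-40 hearts, against 133, 225 and 102 in SQ-3 hearts. Both groups averaged 153 FPKM, and the fitted difference was -0.33 (-1.61 to 0.95), running from -0.95 without LQ-40 heart 3 to 0.47 without LQ-40 heart 1. Timp1, an inhibitor of matrix metalloproteinases, was at 7.74, 47.5 and 129.9 in LQ-40 hearts, against 27.5, 66.3 and 29.7 in SQ-3 hearts, a difference of -0.03 with an interval of -1.69 to 1.63. Postn and Timp1 were lowest in LQ-40 heart 1 and highest in LQ-40 heart 3. Thbs4, thrombospondin 4, was at 6.10, 50.4 and 29.8 in LQ-40 hearts, against 32.5, 69.5 and 24.5 in SQ-3 hearts, a difference of -0.81 (-2.19 to 0.58). Lox, which cross-links collagen, Fmod, the collagen-binding fibromodulin, and Cthrc1, a protein of activated fibroblasts, differed by 0.02, -0.68 and -0.05, and each interval was more than 2-fold wide on both sides. Acta2, smooth muscle actin, stood apart from these with a tight estimate: 116, 112 and 125 in LQ-40 hearts, against 93.1, 149 and 109 in SQ-3 hearts, a difference of 0.04 (-0.32 to 0.39). Mmp2, a gelatinase, differed by 0.04 (-0.64 to 0.72). The 30 matrix processing enzymes and inhibitors had a median of 0.04, with 0 at an unadjusted p under 0.05. Without LQ-40 heart 1, 9 of the 30 were higher in LQ-40 hearts at that threshold, beside 6.54% of all genes, with a median of 0.39. The 14 resident fibroblast genes had one of -0.05, with 12 intervals inside a 2-fold change.

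**Figure D3:**
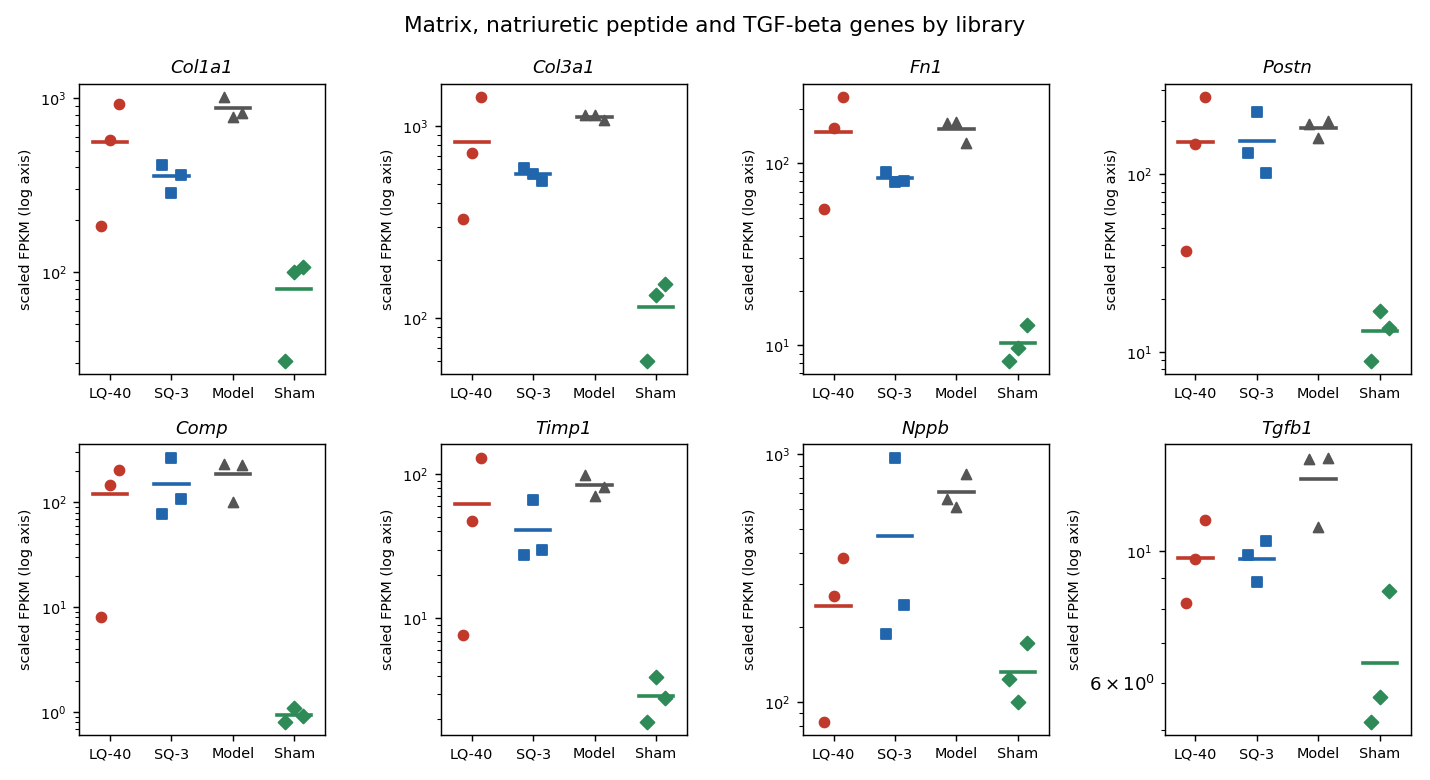
Scaled FPKM (vertical log axis) of 8 matrix, peptide and TGF-beta genes in LQ-40, SQ-3, Model and Sham hearts; points are libraries in replicate order and bars are group means of 3. Col1a1 spans 184 to 925 among LQ-40 hearts and 287 to 416 among SQ-3 hearts, while Tgfb1 averages 9.72 and 9.71.

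The ligands of the TGF-beta pathway had smaller differences than their own spread. Tgfb1 was at 8.16, 9.71 and 11.3 in LQ-40 hearts, against 9.85, 8.86 and 10.4 in SQ-3 hearts, a difference of -0.01 with an interval of -0.39 to 0.38. The groups overlapped throughout, and both lay between the means of Model (13.2) and Sham hearts (6.47). Tgfb2 differed by 0.03 (-0.58 to 0.64) and Tgfb3 by -0.33 (-1.04 to 0.39). Among TGF-beta target genes, Ctgf, now named Ccn2 and coding for connective tissue growth factor, was at 42.1, 246 and 256 in LQ-40 hearts, against 99.5, 377 and 89.7 in SQ-3 hearts. LQ-40 heart 1 was lowest and SQ-3 heart 2 highest, and the interval of the difference reached -1.63 to 1.40. The 24 TGF-beta pathway genes had a median of 0.01, 21 intervals inside a 2-fold change and 0 at an unadjusted p under 0.05; without LQ-40 heart 1 the median was 0.31.

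Among contractile and cardiac stress genes, the fetal myosin Myh7 had the smallest p. It was at 39.3, 45.1 and 55.3 in LQ-40 hearts and 67.9, 91.3 and 61.0 in SQ-3 hearts, with means of 46.5 ± 8.09 and 73.4 ± 15.9 (SD, n = 3 each). The groups did not overlap, which was so for 325 genes lower in LQ-40 hearts (2.50%). The difference was -0.64 (-1.10 to -0.17), limma unadjusted p = 0.0116, and its adjusted p missed the threshold. Model hearts averaged 44.7 ± 11.2 and Sham hearts 53.8 ± 5.52, so the SQ-3 hearts had the highest mean of the 4 groups. Mhrt, an antisense RNA, and other transcripts overlap Myh7, and the strand setting of the counting is not given in the sources used here. Myh6, the adult myosin, was at 2912, 2153 and 1205 in LQ-40 hearts, against 2405, 1664 and 2981 in SQ-3 hearts, a difference of -0.22 (-0.94 to 0.51).

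Nppb and Nppa code for natriuretic peptides that ventricular muscle releases under load. Nppb was at 83.3, 267 and 382 in LQ-40 hearts, against 188, 969 and 247 in SQ-3 hearts, and Nppa at 266, 1673 and 768 in LQ-40 hearts, against 729.6, 3215 and 373 in SQ-3 hearts. SQ-3 heart 2 was the highest and LQ-40 heart 1 the lowest for both genes. Their differences were -0.80 (-2.18 to 0.59) and -0.45 (-2.19 to 1.29). Ankrd1, a stretch-responsive nuclear factor, differed by -0.18 (-1.11 to 0.75), and Ankrd23, of the same family, was at 5.44, 5.56 and 4.45 in LQ-40 hearts, against 8.34, 8.49 and 5.90 in SQ-3 hearts, a difference of -0.47 (-0.88 to -0.06) at an unadjusted p of 0.0282. The Ankrd23 values did not overlap, and all 3 LQ-40 hearts were the lower ones. Of the 12 cardiac stress and fetal genes tested, 10 were below 0, with a median of -0.37; without SQ-3 heart 2 the median was -0.02, and without LQ-40 heart 1 it was -0.04.

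All 21 contractile genes tested had a difference below 0, with a median of -0.22, and 19 of the intervals lay inside a 2-fold change. The 1 member of the 21 at an unadjusted p under 0.05, beside 1.25% of all genes lower in this way, was Myl7, the atrial light chain. It was under 2 FPKM in all 6 hearts, with 0, 2 and 2 reads in LQ-40 hearts, against 3, 19 and 10 reads in SQ-3 hearts, a difference of -0.86 (unadjusted p = 0.0494, or 0.0136 to 0.173 under other settings). The mean level of the contractile list relative to Model was 0.64, 0.24 and -0.27 in LQ-40 hearts, against 0.41, 0.35 and 0.60 in SQ-3 hearts. LQ-40 heart 1 was the highest and LQ-40 heart 3 the only one below Model, and without LQ-40 heart 3 the median was 0.00. Without LQ-40 heart 1 it was -0.44, with 8 members at an unadjusted p under 0.05 and lower (5.08% of all genes). The 28 nuclear genes of oxidative phosphorylation, 27 of them below 0, had a median of -0.24, which was 0.01 without LQ-40 heart 3 and -0.52 without LQ-40 heart 1. No member reached an unadjusted p under 0.05 with all hearts, and 20 of the 28 did so without LQ-40 heart 1, all lower in LQ-40 hearts, where 5.08% of all genes were. Ndufs1, a subunit of complex I, was at 75.4, 43.5 and 34.1 in LQ-40 hearts, against 57.6, 50.2 and 65.3 in SQ-3 hearts. The mean level of this list relative to Model was 0.86, 0.14 and -0.19 in LQ-40 hearts, against 0.41, 0.34 and 0.66 in SQ-3 hearts, the order that the mitochondrial share of reads also had among the LQ-40 hearts; the part of that share in the result was not tested. The 13 genes of the mitochondrial genome had a median of -0.10, which was 0.21 without LQ-40 heart 3.

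Within fatty acid oxidation, 1 gene was higher and 1 was lower at an unadjusted p under 0.05, beside 1.78 and 1.25% of all genes. Cpt1a, a carnitine palmitoyltransferase that admits fatty acids to mitochondria, was at 23.8, 23.8 and 26.0 in LQ-40 hearts, against 17.3, 20.6 and 18.2 in SQ-3 hearts, a difference of 0.38 (0.12 to 0.63, unadjusted p = 0.00802). Acadvl, the very long-chain acyl-CoA dehydrogenase, was at 85.6, 97.6 and 66.3 in LQ-40 hearts, against 128, 103 and 146 in SQ-3 hearts, a difference of -0.60 (-1.08 to -0.11, unadjusted p = 0.0212). Neither gene's groups overlapped, and the signs were opposite, with neither gene past the adjusted test. The 25 genes tested had a median of -0.20, with 19 below 0. It was -0.51 without LQ-40 heart 1, with 12 members at an unadjusted p under 0.05 and lower (5.08% of all genes), and turned to 0.07 without LQ-40 heart 3. Pdk4, which holds back glucose oxidation, was at 111, 62.6 and 29.5 in LQ-40 hearts, against 40.5, 59.3 and 65.1 in SQ-3 hearts, and Ucp3, a mitochondrial carrier, at 10.9, 5.83 and 2.16 in LQ-40 hearts, against 3.76, 2.86 and 4.78 in SQ-3 hearts. Both were highest in LQ-40 heart 1 and lowest in LQ-40 heart 3. Angptl4, an inhibitor of lipoprotein lipase, was at 7.40, 4.10 and 9.27 in LQ-40 hearts, against 1.96, 3.47 and 2.49 in SQ-3 hearts without overlap, a difference of 1.08 (0.36 to 1.80, unadjusted p = 0.00709).

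Several interferon-inducible GTPases had a small unadjusted p and none an adjusted p under 0.05. These GBP and IRG proteins gather on the vacuoles of intracellular pathogens and are induced chiefly by interferon gamma. Gbp3 (mm10, chr3:142560026-142573209, plus strand) was at 13.5, 20.8 and 16.8 in LQ-40 hearts and 8.04, 8.08 and 7.24 in SQ-3 hearts, against a mean of 5.54 ± 1.91 in Model and 43.2 ± 7.36 in Sham hearts (means ± SD, n = 3 each). The lowest LQ-40 heart was above the highest SQ-3 heart, as for 470 genes (3.62%). The difference was 1.02 (0.52 to 1.51), limma unadjusted p = 0.000898. Tgtp2 (chr11:49057194-49064206, minus strand), an IRG protein, was at 5.36, 8.25 and 7.21 in LQ-40 hearts, against 2.28, 2.97 and 2.01 in SQ-3 hearts, again without overlap, a difference of 1.21 (0.59 to 1.82, unadjusted p = 0.00126). Tgtp2 has a near-identical copy, Tgtp1, and its locus overlaps Olfr56, so its reads may be shared. The adjusted p of both genes was 1.00.

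The promoter windows of Gbp3 and Tgtp2 are shown because they hold the interferon-stimulated response element core, beside that of Isg15, an interferon target that did not differ in this way. Each window is the 300 bases from 250 before to 50 after the transcription start in RefSeq, build GRCm38.p6, at chr3:142559794-142560093, plus strand for Gbp3, chr11:49064163-49064462, minus strand for Tgtp2 and chr4:156200769-156201068, minus strand for Isg15. For Gbp3 it is the first of 2 windows listed. Capitals mark matches, on either strand, to GAAA, any 2 bases and GAAA again, where overlapping matches run together: 2 in Gbp3, 1 in Tgtp2 and 3 in Isg15.
Gbp3: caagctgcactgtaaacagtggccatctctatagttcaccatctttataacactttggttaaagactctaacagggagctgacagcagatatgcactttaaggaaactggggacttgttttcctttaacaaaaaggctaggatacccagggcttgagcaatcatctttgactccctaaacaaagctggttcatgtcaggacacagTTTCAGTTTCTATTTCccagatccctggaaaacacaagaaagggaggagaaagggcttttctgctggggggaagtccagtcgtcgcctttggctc
Tgtp2: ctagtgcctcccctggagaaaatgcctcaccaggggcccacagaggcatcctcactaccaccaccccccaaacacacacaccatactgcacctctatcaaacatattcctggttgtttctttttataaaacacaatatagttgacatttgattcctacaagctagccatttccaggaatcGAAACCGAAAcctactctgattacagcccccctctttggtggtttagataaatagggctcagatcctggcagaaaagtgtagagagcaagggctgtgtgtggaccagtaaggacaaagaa
Isg15: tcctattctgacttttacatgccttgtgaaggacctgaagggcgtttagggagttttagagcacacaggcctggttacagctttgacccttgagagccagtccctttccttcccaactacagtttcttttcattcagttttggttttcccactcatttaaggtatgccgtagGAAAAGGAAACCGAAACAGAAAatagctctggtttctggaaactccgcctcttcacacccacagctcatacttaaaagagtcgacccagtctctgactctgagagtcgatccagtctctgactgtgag
The motif was found in 3.44% of 32851 promoter windows of this length. Of the 32 interferon genes listed, 23 had a window and 12 of those held it. These matches are a description of the letters only, and Isg15 with 3 matches was at 8.68, 7.42 and 14.6 in LQ-40 hearts, against 12.8, 17.7 and 8.03 in SQ-3 hearts, a difference of -0.29 (-1.03 to 0.45).

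Iigp1, another IRG GTPase, was at 44.5, 55.9 and 44.1 in LQ-40 hearts, against 20.1, 21.1 and 28.2 in SQ-3 hearts, a difference of 1.04 (0.32 to 1.75, unadjusted p = 0.00901). Igtp, which overlaps Irgm2, was at 28.3, 33.7 and 27.2 in LQ-40 hearts, against 15.3, 12.7 and 14.6 in SQ-3 hearts, a difference of 1.01 (0.27 to 1.76). In both genes every LQ-40 heart lay above every SQ-3 heart, and both groups lay far below the Sham means of 242 for Iigp1 and 208 for Igtp. Gbp7 differed by 0.72 (unadjusted p = 0.00722), Gbp2 by 0.82 (unadjusted p = 0.0174) and Ifi47, an IRG member, by 0.76 (unadjusted p = 0.0286), all higher in LQ-40 hearts. Ifit1, which binds viral RNA, and Irf7, a transcription factor, are induced chiefly by type I interferon, and differed by 0.29 (-0.40 to 0.98) and 0.25 (-0.42 to 0.92). Whether targets of interferon gamma and of type I interferon differed from each other as groups was not tested.

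Of the 32 interferon genes, 0 passed the adjusted test, 7 were higher and 0 lower in LQ-40 hearts at an unadjusted p under 0.05, set beside 1.78 and 1.25% of all genes. Their median was 0.33, with 28 above 0 and 22 intervals inside a 2-fold change. The list and the comparison were chosen with earlier results known, so the count is a description. It ranged over 4 to 10 as single hearts were left out: 4 without LQ-40 heart 2, where 1.55% of all genes were higher and 1.43% lower in this way, and 10 without LQ-40 heart 1, where 6.54% were higher. Without SQ-3 heart 3 the median was 0.16. The mean level of the list relative to Model was 0.64, 0.69 and 0.88 in LQ-40, 0.46, 0.49 and 0.19 in SQ-3, 0.35, 0.10 and -0.45 in Model and 2.46, 2.50 and 2.90 in Sham hearts. The SQ-3 hearts thus lay nearer to both the LQ-40 and the Model hearts than to the Sham hearts. Set against Model, 3 members were called higher in LQ-40 hearts, beside 0.185% of all genes. In SQ-3 hearts 0 members were called higher, beside 0.0769% of all genes. The list medians against Model were 0.72 for LQ-40 and 0.32 for SQ-3, and the direct test called none of the 32.

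H2-K1 (chr17:33996017-34000333, minus strand), a classical MHC class I heavy chain, was at 104, 58.5 and 196 in LQ-40 hearts, against 36.3, 30.2 and 40.5 in SQ-3 hearts. All 3 LQ-40 hearts were above all 3 SQ-3 hearts, with a range of more than 3-fold among the LQ-40 hearts. The difference was 1.56 (0.63 to 2.48, unadjusted p = 0.00348). MHC class I genes are near-identical to each other and vary between strains, so reads may be split or lost. H2-DMb1, which helps to load peptides on class II, was at 3.07, 3.10 and 10.3 in LQ-40 hearts, against 1.48, 1.84 and 1.75 in SQ-3 hearts, a difference of 1.09 (unadjusted p = 0.0184). The 7 class II genes, mostly of macrophages, dendritic and B cells, had a median of 0.54 and 0 intervals inside a 2-fold change. Their summed level was 193, 515 and 759.6 FPKM in LQ-40 hearts, against 230.1, 259 and 411 FPKM in SQ-3 hearts, high in LQ-40 heart 3 and lowest in LQ-40 heart 1; without LQ-40 heart 3 the median was 0.23 and without LQ-40 heart 1 it was 1.06.

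Cytokine and chemokine genes were mostly above 0, 18 of 20, with a median of 0.44 and 2 members at an unadjusted p under 0.05 and higher in LQ-40 hearts, beside 1.78% of all genes. Il33, an alarmin stored in nuclei of stromal cells, was at 19.1, 24.9 and 45.4 in LQ-40 hearts, against 14.4, 14.0 and 11.4 in SQ-3 hearts, a difference of 1.02 (0.26 to 1.79, unadjusted p = 0.0134). Ccl8, a monocyte chemokine, was at 23.0, 33.4 and 86.0 in LQ-40 hearts, against 13.1, 16.1 and 21.1 in SQ-3 hearts, a difference of 1.25 (0.21 to 2.29, unadjusted p = 0.0231). Neither gene's groups overlapped, and LQ-40 heart 3 was the highest of the 6 for both. Without LQ-40 heart 3 the list's median was 0.12. Ccl2 showed the same heart apart, at 3.26, 2.99 and 11.6 in LQ-40 hearts, against 3.19, 2.66 and 2.84 in SQ-3 hearts. Spp1, osteopontin, was at 4.50, 6.54 and 30.3 in LQ-40 hearts, against 8.18, 35.2 and 12.6 in SQ-3 hearts, with high values in both groups.

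The 25 macrophage genes had a median of 0.34 and a summed level of 1329, 2046 and 2719 FPKM in LQ-40 hearts, against 1264, 1634 and 1842 FPKM in SQ-3 hearts. The median was 0.10 without LQ-40 heart 3 and 0.56 without LQ-40 heart 1, where 10 members were higher at an unadjusted p under 0.05 (6.54% of all genes), against 1 with all hearts. Csf1r, the receptor that macrophages need to survive, was at 31.1, 38.1 and 40.4 in LQ-40 hearts, against 30.5, 24.3 and 34.6 in SQ-3 hearts, a difference of 0.29 (-0.05 to 0.64). Mertk, which takes up dying cells, was at 4.13, 6.57 and 4.62 in LQ-40 hearts, against 2.72, 3.88 and 3.78 in SQ-3 hearts, a difference of 0.44 at an unadjusted p of 0.0132, with no overlap. Cd14, a co-receptor for bacterial lipopolysaccharide, differed by 0.26 (-0.23 to 0.75). S100a9, an abundant neutrophil protein, was at 35.2, 1.93 and 48.3 in LQ-40 hearts, against 3.48, 3.06 and 7.55 in SQ-3 hearts. LQ-40 hearts 1 and 3 were high and LQ-40 heart 2 was the lowest of the 6, and the interval was -0.24 to 3.62. Only 4 of the 10 neutrophil genes passed the filter, with a median of 1.17, which was 1.84 without LQ-40 heart 2, where all 4 had an unadjusted p under 0.05 (1.55% of all genes were so and higher), and 0.60 without LQ-40 heart 3. Of 12 lymphocyte genes 5 passed, with a median of 0.00, or 0.42 without SQ-3 heart 3. Beside these immune genes, the summed lymphocyte level was 70.3, 32.9 and 29.1 FPKM in LQ-40 hearts, against 33.6, 16.7 and 134 FPKM in SQ-3 hearts, highest in SQ-3 heart 3. The part of these cell types in the interferon and MHC values was not tested.

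Clock genes were split, with 10 of 19 above 0 and a median of 0.00. Per2, a repressor of the clock loop, was at 8.74, 9.99 and 5.93 in LQ-40 hearts, against 3.89, 4.43 and 2.31 in SQ-3 hearts, beside means of 1.89 in Model and 6.16 in Sham hearts. The groups did not overlap, and the difference was 1.03 (0.48 to 1.57, unadjusted p = 0.00167). Per3, of the same family, was at 5.97, 7.12 and 6.09 in LQ-40 hearts, against 4.74, 4.79 and 4.12 in SQ-3 hearts, also without overlap, a difference of 0.41 (0.14 to 0.68, unadjusted p = 0.00650). Arntl, the activator partner of Clock, was near the detection floor at 0.287, 0.368 and 0.430 in LQ-40 hearts, against 0.833, 0.584 and 0.807 in SQ-3 hearts, beside a Model mean of 4.62. Its difference of -0.35 (unadjusted p = 0.0477) is understated by the pseudocount. Cry1, a partner of the period proteins, differed by 0.32 (unadjusted p = 0.0452) with overlapping values.

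Dbp, a D-box factor at the output of the clock, was at 32.8, 40.9 and 31.7 in LQ-40 hearts, against 39.6, 32.3 and 35.5 in SQ-3 hearts, a difference of -0.03 (-0.50 to 0.44). Model hearts averaged 4.14 and Sham hearts 40.2, so both compound groups were near the Sham mean, and their values overlapped. Nr1d1, the repressor REV-ERB alpha, was at 26.8, 38.7 and 39.9 in LQ-40 hearts, against 57.3, 35.7 and 49.1 in SQ-3 hearts, a difference of -0.42 (-0.96 to 0.13). Against Model, 7 clock genes were called higher and 4 lower in LQ-40 hearts, beside 0.185 and 0.485% of all genes, and 6 higher and 4 lower in SQ-3 hearts, beside 0.0769 and 0.269%. The direct test called 0 of the 19, 3 were higher and 1 lower at an unadjusted p under 0.05 (1.78 and 1.25% of all genes), and 18 intervals lay inside a 2-fold change. The labels give no time of day for any heart. The promoter window of Per3 (RefSeq, GRCm38.p6, chr4:151044616-151044915, minus strand) is shown because it holds 2 copies of the D-box TTATGTAA, marked by capitals and searched on both strands, as do 0.938% of windows at least once.
Per3: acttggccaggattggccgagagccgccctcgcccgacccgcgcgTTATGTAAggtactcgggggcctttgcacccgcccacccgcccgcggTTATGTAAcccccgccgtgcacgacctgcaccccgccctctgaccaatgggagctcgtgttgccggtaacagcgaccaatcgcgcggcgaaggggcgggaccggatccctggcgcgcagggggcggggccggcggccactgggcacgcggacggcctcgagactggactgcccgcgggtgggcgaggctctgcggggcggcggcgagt
Of 16 clock genes with a window, Per3 alone held this motif, a description of the letters only.

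For stress genes of the endoplasmic reticulum, the interval from the estimate to either limit measured 0.39 at the median, against 0.34 over all genes. Hspa5, the chaperone BiP, was at 108, 89.8 and 87.5 in LQ-40 hearts, against 89.5, 103 and 98.5 in SQ-3 hearts, beside 231 ± 7.14 in Model hearts (SD, n = 3), and differed by -0.03 (-0.31 to 0.25). The compound groups overlapped fully and both lay below every Model heart. Xbp1, a transcription factor of the unfolded protein response, differed by 0.18 (-0.08 to 0.44). All 19 genes of protein folding stress had intervals inside a 2-fold change, as did 90.8% of all genes, and their median difference was 0.04. Of the 19, 7 were called lower in LQ-40 than in Model hearts (0.485% of all genes) and 7 in SQ-3 than in Model hearts (0.269%). The 19 heat shock chaperones tested also all had such intervals, with a median of -0.11.

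Immediate early genes, transcribed at once after a stimulus such as stretch, had a median of -0.14 with 0 of 22 at an unadjusted p under 0.05. Nr4a1, an orphan nuclear receptor, was at 2.49, 6.35 and 7.03 in LQ-40 hearts, against 10.2, 13.4 and 9.32 in SQ-3 hearts, with no overlap, a difference of -1.005 (-2.09 to 0.08). Fos was at 1.61, 8.41 and 5.50 in LQ-40 hearts, against 2.32, 7.06 and 2.35 in SQ-3 hearts, and Egr1 differed by -0.28 (-1.02 to 0.46). Cdkn1a, the cell cycle inhibitor p21, was at 7.50, 10.4 and 10.4 in LQ-40 hearts, against 11.1, 16.2 and 16.7 in SQ-3 hearts without overlap, a difference of -0.58 (-1.06 to -0.10, unadjusted p = 0.0217); Model hearts averaged 34.8 ± 9.84 (SD, n = 3). Gdf15, a secreted stress hormone, was at 0.500, 2.01 and 3.89 in LQ-40 hearts, against 2.40, 5.73 and 1.19 in SQ-3 hearts, all below the Model mean of 21.03. Vegfa, an endothelial growth factor, was at 25.2, 24.6 and 18.1 in LQ-40 hearts, against 27.1, 30.5 and 27.3 in SQ-3 hearts, a difference of -0.32 (-0.60 to -0.04, unadjusted p = 0.0280). Nos3, the endothelial nitric oxide synthase, differed by -0.34 (unadjusted p = 0.0341), and both genes were lower in every LQ-40 heart than in any SQ-3 heart.

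Xdh (chr17:73883895-73950196, minus strand), xanthine dehydrogenase of purine breakdown, had the smallest p of all protein-coding genes that averaged 2 FPKM or more. It was at 29.5, 30.8 and 21.4 in LQ-40 hearts, against 18.0, 13.2 and 16.8 in SQ-3 hearts, beside 16.2 ± 1.72 in Model and 38.3 ± 1.69 in Sham hearts (means ± SD, n = 3 each). No LQ-40 heart overlapped with an SQ-3 heart, and the SQ-3 hearts were at the Model level. The difference was 0.73 (0.38 to 1.07), unadjusted p = 0.000701, and it ran from 0.60 to 0.88 as single hearts were left out. The other genes of smallest p on the higher side, beside Gbp3, Tgtp2, Per2 and H2-K1, were Tbl1xr1, of a corepressor complex (0.43), Aplp1, a relative of the amyloid precursor (0.64), Atoh8, a basic helix-loop-helix factor (0.54), Ccng2, cyclin G2 (0.42), and Slc25a30, a mitochondrial carrier (0.37).

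Rrad (chr8:104628070-104631327, minus strand), a small GTPase that inhibits the L-type calcium channel of cardiomyocytes, was among the 10 genes of smallest p on the lower side. It was at 43.3, 43.5 and 41.8 in LQ-40 hearts, against 65.7, 56.8 and 77.4 in SQ-3 hearts, beside 60.4 ± 15.3 in Model and 65.9 ± 9.33 in Sham hearts (means ± SD, n = 3 each), with a difference of -0.61 (-1.02 to -0.21, unadjusted p = 0.00692). The LQ-40 hearts were nearly equal to each other and below every SQ-3 heart. Cyp26a1, which degrades retinoic acid, was at 0.218, 1.35 and 1.86 in LQ-40 hearts, against 2.83, 6.76 and 2.98 in SQ-3 hearts, and listed at 0 in every Sham heart, with a difference of -1.28 (-2.09 to -0.48, unadjusted p = 0.00478). Another 7 differed by -0.45 for D630003M21Rik, -0.33 for Leng8, -0.44 for Fam58b, -0.60 for the glycosyltransferase gene B3gnt3, -0.45 for the sorting nexin gene Snx32, -0.34 for the semaphorin gene Sema4c and -0.52 for Nudt22. None of the 20 genes of smallest p, 10 in each direction, passed the adjusted test.

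**Figure D4:**
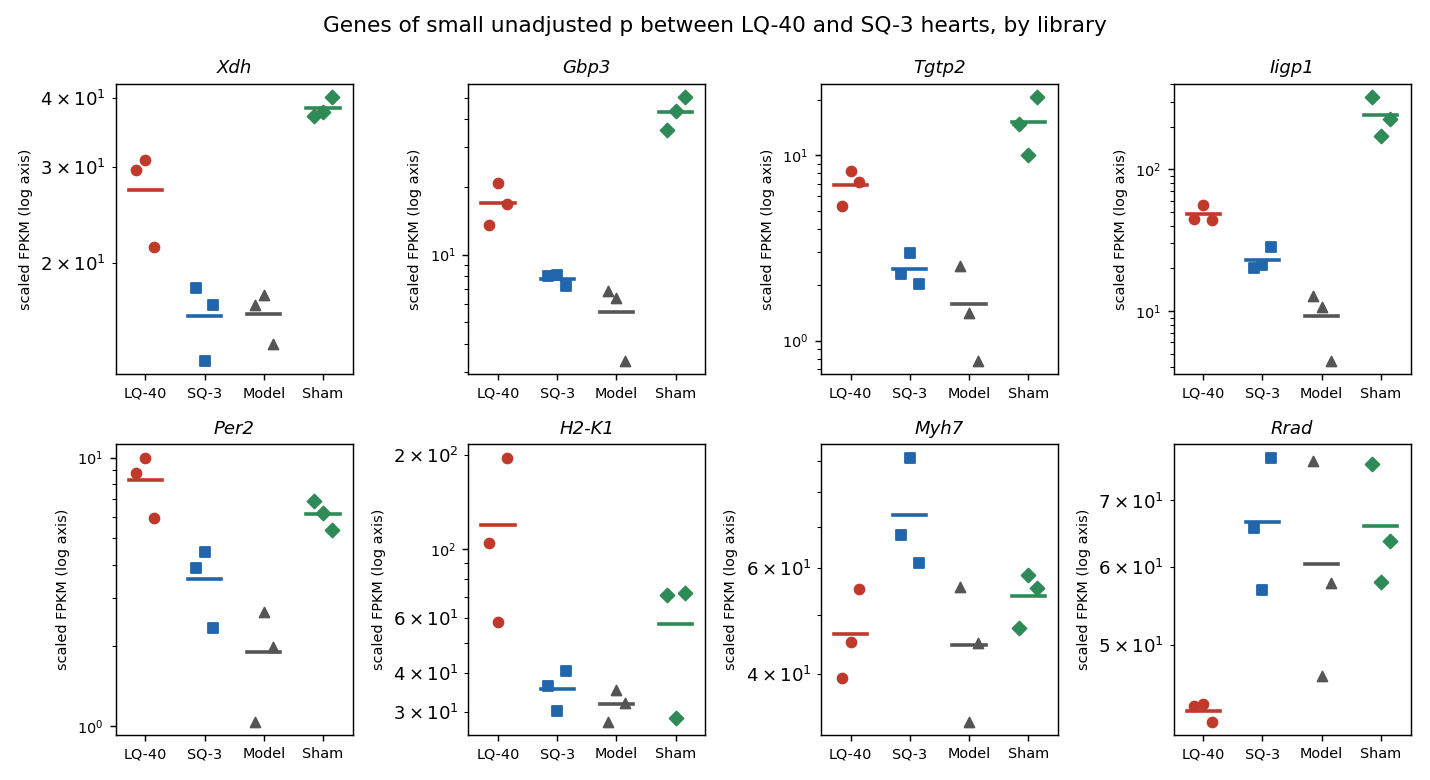
Scaled FPKM (vertical log axis, not starting at 0) of 8 genes of small unadjusted p in LQ-40, SQ-3, Model and Sham hearts; points are libraries in replicate order and bars are group means of 3. In each panel the LQ-40 points do not overlap with the SQ-3 points; the means are 27.2 and 16.0 FPKM for Xdh and 42.9 and 66.6 FPKM for Rrad.

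Of the 40 lists, 37 had a median within 0.5 of 0, and the MHC class II, neutrophil and erythroid lists lay outside. The 15 endothelial genes had a median of -0.06 and the 12 smooth muscle and pericyte genes one of 0.00, and all their intervals lay inside a 2-fold change. Adipocyte genes summed to 521, 259 and 201 FPKM in LQ-40 hearts, against 311, 269.5 and 319 FPKM in SQ-3 hearts, and erythroid genes to 2219, 1048 and 1036 FPKM in LQ-40 hearts, against 684, 1519.5 and 1183 FPKM in SQ-3 hearts, both highest in LQ-40 heart 1. Their medians were 0.49 and 0.61, and -0.08 and -0.05 without that heart. The median of the mesothelial and epicardial genes was 0.32, which turned to -0.08 without LQ-40 heart 2 and was 0.71 without LQ-40 heart 3. The 5 of 8 atrial genes tested had a median of -0.14 (0.09 without LQ-40 heart 3). For the 4 of 10 skeletal muscle genes tested it was -0.17, with 0 intervals inside a 2-fold change. Of 9 Schwann cell and neuronal genes 4 were tested, with a median of 0.16 and differences from -0.42 to 0.63. Cdh19, a Schwann cell cadherin, was at 3.26, 2.37 and 2.60 in LQ-40 hearts, against 0.776, 1.79 and 1.82 in SQ-3 hearts, a difference of 0.63 (unadjusted p = 0.00963).

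Genes that respond to foreign compounds had a median of 0.11 over 14 tested. Abcg2, a drug efflux pump, differed by 0.26 (0.04 to 0.48) and Gsta3, a glutathione transferase, by 0.48 (0.11 to 0.86), at limma unadjusted p of 0.0253 and 0.0169. They were the 2 of the 14 higher at an unadjusted p under 0.05, beside 1.78% of all genes. Both were higher in every LQ-40 heart than in any SQ-3 heart, as were 3.62% of all genes. Cyp1b1, a target of the aryl hydrocarbon receptor, differed by 0.35 (-0.39 to 1.09). NRF2 antioxidant targets had a median of 0.03, with Hmox1, heme oxygenase 1, at 0.03 (-0.52 to 0.58) and G6pdx, of the pentose phosphate pathway, at 0.27 (0.04 to 0.50). Glucocorticoid-responsive genes had a median of 0.06 with 3 higher and 1 lower at an unadjusted p under 0.05, beside 1.78 and 1.25% of all genes. Among them Zbtb16, a zinc finger repressor, was at 13.7, 18.4 and 5.26 in LQ-40 hearts, against 7.15, 4.65 and 2.21 in SQ-3 hearts, with overlap, and Lcn2, an acute-phase iron carrier protein, at 2.85, 2.83 and 9.64 in LQ-40 hearts, against 1.46, 1.13 and 2.52 in SQ-3 hearts, with none. The medians were -0.11 for sterol synthesis, -0.10 for glycolysis and hypoxia, 0.00 for p53 targets, 0.20 for the cell cycle, -0.10 for ion channels (0.12 without LQ-40 heart 3), 0.08 for amino acid stress and transport, 0.14 for prostaglandin genes, 0.02 for cytosolic ribosomal proteins and -0.02 for sex-linked genes.

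**Figure D5:**
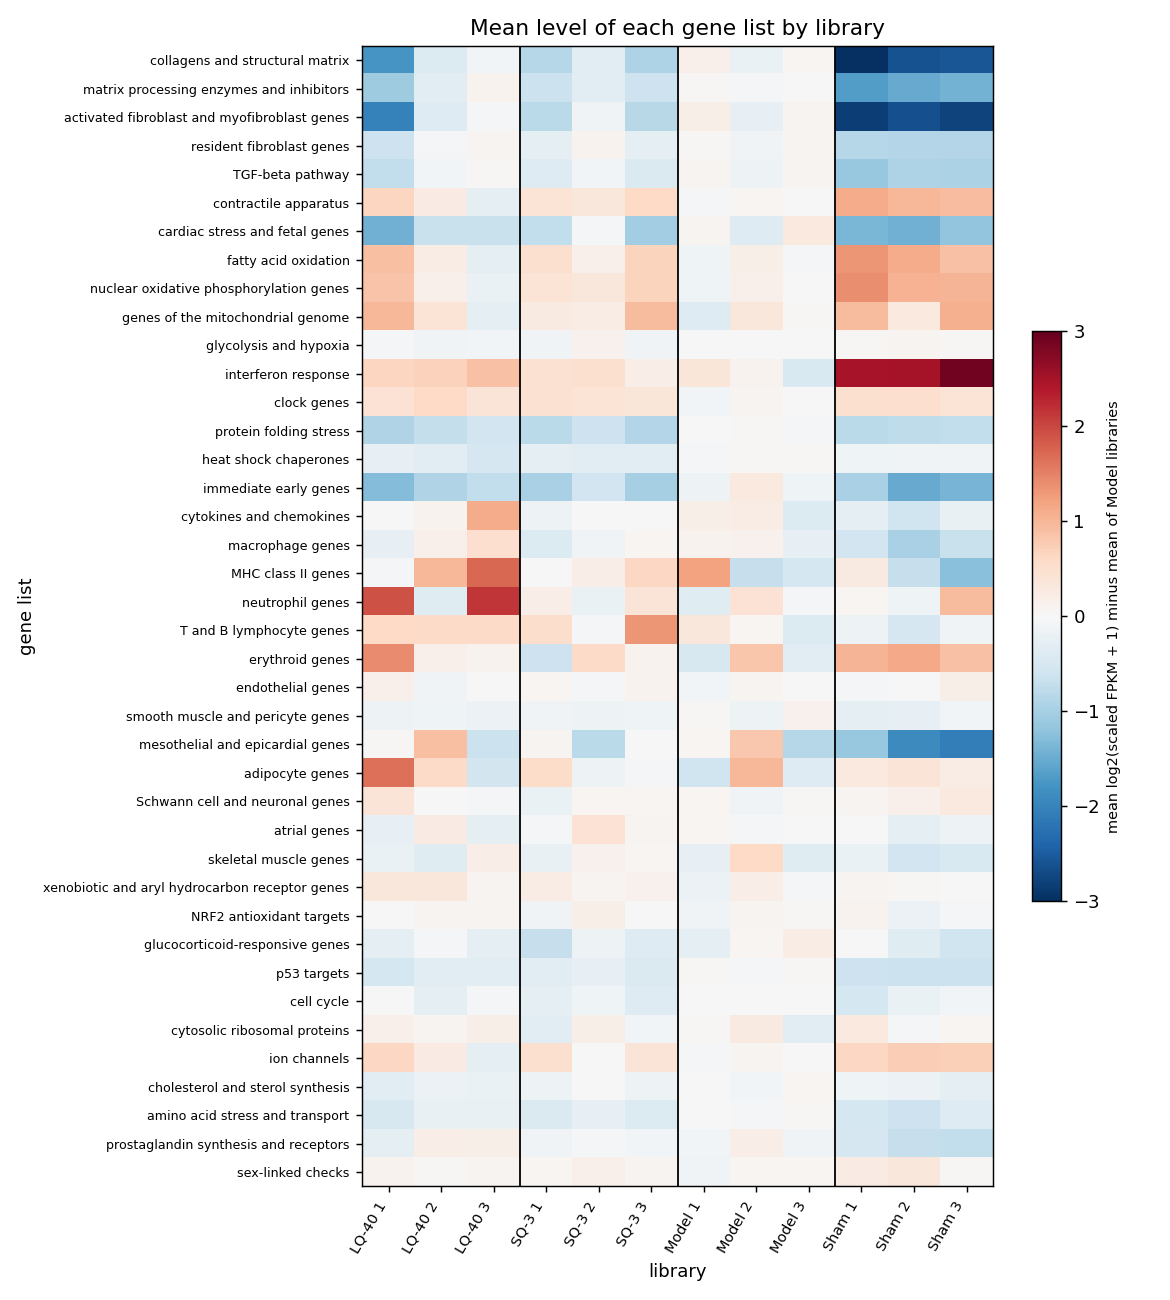
Mean log2(scaled FPKM + 1) of the tested members of each of 40 gene lists (vertical axis) in each of the 12 libraries (horizontal axis), minus the mean of the 3 Model libraries; red is higher and blue is lower than Model. For collagens and structural matrix, LQ-40 hearts are at -1.77, -0.41 and -0.08 and SQ-3 hearts at -0.87, -0.34 and -0.92.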

How the data were processed

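Poly(A) RNA of mouse hearts was sequenced, and the authors deposited FPKM per gene (fragments scaled by gene length and library size), per the file headers. Per the submitters' processing notes, fastp, HISAT2 2.0.5 and featureCounts 1.5.0-p3 were used with build mm10; the annotation release, the strand setting and which of 2 described library kits was used could not be read from the sources used here. Coordinates of 12456 of the 13000 tested genes were identical in GENCODE M21 (GRCm38).

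From the deposited FPKM, each library was divided by a median-of-ratios factor (10422 genes with at least 1 FPKM in all 12 libraries; factors 0.979 to 1.03). The 13000 genes that reached 1 FPKM in 3 or more of 12 libraries were tested on log2(scaled FPKM + 1), a scale that understates changes of low genes, with limma (version 3.58.1, R version 4.3.3; functions lmFit, contrasts.fit and eBayes, the last with trend), all 12 mouse libraries in 1 fit, two-sided, Benjamini-Hochberg adjustment over all genes tested and a threshold of 0.05. Differences are LQ-40 minus SQ-3 and intervals are 95% intervals of this fit. Values were whole multiples of 1 read for 100.0% of entries (tolerance 0.02 reads), and limma-voom was run on the recovered reads. The fitting code was tested on simulated data. Single values per library were compared by an exact permutation test with SciPy 1.17.1.

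The text names the 10 genes of smallest unadjusted p in each direction (protein-coding, mean of at least 2 FPKM), 51 fixed genes, of which 48 were tested (Cpt1b, Hspa1a and Cyp1a1 were not), members of 40 lists (684 genes) by smallest p, and genes of highest SD with a mean of at least 10 FPKM. The members and lists were chosen with earlier results of these data known. A few genes that these rules name are not reported here. Other settings changed the scaling, pseudocount, filter, libraries, weights and block. Overlapping genes and near-identical copies could share reads. Sequences were read from a RefSeq promoter table of build GRCm38.p6.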

Additional observations from a re-analysis of the deposited data

How the results depend on the processing

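With 3 hearts a group, only large differences could be called, and doses, times and the origin of each heart are not in the labels; FPKM keeps no reads of genes outside the annotation used. Genes called between LQ-40 and SQ-3 hearts numbered 0 higher and 0 lower with unscaled FPKM, quantile normalization, a pseudocount of 0.1, genes averaging 5 FPKM or more, the 6 compound libraries alone, limma-voom and default library weights, whose estimation stopped before it converged. With no filter (29037 genes), 1 was called higher and 1 lower, both immunoglobulin segments (Ighv13-2 and Ighv3-4). Gene-by-gene library weights, a setting chosen after seeing the data, called 313 higher (2.41%) and 174 lower (1.34%). Among these were 21 of 68 named genes, but the 68 include the 20 genes of smallest p, picked from these same data. The weights gave LQ-40 heart 2 a value of 8.45 against 0.277 and 0.397 for LQ-40 hearts 1 and 3. The LQ-40 mean thus rested mostly on 1 heart. Leaving out single hearts gave 0 to 0 called higher and 0 to 1 called lower, that call being Rpl17-ps5 without SQ-3 heart 1. Genes at an unadjusted p under 0.05 numbered 1053 with no filter, 171 of 6800 with a mean of at least 5 FPKM, 2293 with default and 3524 with gene-by-gene weights, and 322 to 1510 without single hearts. Intervals inside a 2-fold change numbered 27394 with no filter and 6285 with a mean of at least 5 FPKM, where the number of genes tested sets the count, and 11264 to 11629 without single hearts. The replicate block gave 353 genes at an unadjusted p under 0.05 with 12 libraries and 336 with 6, and 0 called. Deviations from the group mean correlated between same-numbered LQ-40 and SQ-3 hearts with r of 0.219, 0.0407 and -0.218. Differently numbered LQ-40 and SQ-3 hearts gave r from -0.394 to 0.389. With 3 hearts a group, these values cannot decide whether the numbers pair hearts. Of 48 other named genes, 30 changed sign under some setting, and 6 of 320 recomputed list medians moved by more than the spread of the list between libraries.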

Other observations

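Genes with near-identical copies varied widely between single libraries, and these were picked after their values were seen. Rps2 was at 278, 114 and 0.509 in LQ-40 hearts, against 3.84, 0.561 and 0.258 in SQ-3 hearts, and Rpl26 at 0.962, 1.35 and 2.67 in LQ-40 hearts, against 66.5, 104 and 1.86 in SQ-3 hearts. Gapdh was listed at 0.934, 0.838 and 38.7 in LQ-40 hearts, against 0.758, 55.4 and 0.763 in SQ-3 hearts, and Gm5514 at 133, 170.2 and 1.02 in LQ-40 hearts, against 113, 95.9 and 239 in SQ-3 hearts. The pseudogenes Rps26-ps1 (183, 41.8 and 143 in LQ-40 hearts, against 4.75, 151 and 3.86 in SQ-3 hearts) and Rpl17-ps5 (11.1, 10.7 and 11.9 in LQ-40 hearts, against 9.6, 149.8 and 106 in SQ-3 hearts) did likewise. Whether their reads were shared with copies was not tested.

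Some immune genes, also picked after their values were seen, were high in single LQ-40 hearts. H2-Ea-ps, a class II pseudogene, was at 38.6, 1.74 and 168 in LQ-40 hearts, against 1.19, 1.25 and 1.61 in SQ-3 hearts, a difference of 3.50 (1.02 to 5.97), with a Model mean of 1.22 FPKM. Hp, haptoglobin, was at 13.2, 13.9 and 146 in LQ-40 hearts, against 10.6, 4.23 and 10.5 in SQ-3 hearts, and Saa3, an acute-phase protein, at 6.67, 1.76 and 54.4 in LQ-40 hearts, against 0.842, 0.438 and 13.2 in SQ-3 hearts.

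Among genes with a mean of at least 10 FPKM, those of highest SD in LQ-40 hearts also included Ccl21a, a lymphoid chemokine (63.4, 1.57 and 6.65 in LQ-40 hearts, against 14.2, 16.5 and 57.04 in SQ-3 hearts), Chad, the cartilage protein chondroadherin (0.414, 18.3 and 16.8 in LQ-40 hearts, against 4.81, 28.3 and 13.2 in SQ-3 hearts), Baiap2l1 (50.2, 25.2 and 2.01 in LQ-40 hearts, against 22.9, 24.3 and 50.5 in SQ-3 hearts) and Thbs1, thrombospondin 1 (2.59, 27.99 and 42.5 in LQ-40 hearts, against 17.2, 55.1 and 22.2 in SQ-3 hearts). LQ-40 heart 1 was the lowest of the 6 for Chad and Thbs1 and the highest for Ccl21a. Those of highest SD in SQ-3 hearts included Nmrk2, a nicotinamide riboside kinase (2.37, 36.9 and 35.3 in LQ-40 hearts, against 14.2, 87.8 and 13.3 in SQ-3 hearts), Angptl7 (29.0, 358 and 242 in LQ-40 hearts, against 57.9, 431 and 99.0 in SQ-3 hearts), and 1500015O10Rik (7.02, 61.2 and 81.8 in LQ-40 hearts, against 19.4, 109.8 and 40.2 in SQ-3 hearts), each highest in SQ-3 heart 2.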
